A study of Mus musculus with 24 samples.

Results

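Fibro-adipogenic progenitors are the resident mesenchymal cells of skeletal muscle. They are described here through 10 marker genes, Pdgfra, Cd34, Ly6a, Dpp4, Pi16, Clec3b, Mfap5, Dpt, Cxcl14 and Smoc2, which were taken by their symbols from the 25369 genes listed for every library. All 10 were found, each is protein-coding, and all 10 passed the filter on low counts that left 14789 genes for testing. Bulk RNA was sequenced from the left quadriceps of mice aged 25 weeks in 24 libraries, 3 for each of 8 groups. The groups were wild-type mice (WT) and mice with the Lama2-CMD mutation (CMD) on 4 backgrounds, C57BL/6J (B6), DBA/2J (D2) and the lines labelled CMD-67 and CMD-87, called 67 and 87 here, which the series' design text names BXD-67 and BXD-87. Lama2 encodes the laminin α2 chain of the muscle basement membrane, and its loss causes a congenital muscular dystrophy. Which Lama2 allele the mice carried is not given in the sources used here, and the labels name no treatment. Libraries are numbered 1 to 24 as in the labels: B6 WT 1 to 3, B6 CMD 4 to 6, 67 WT 7 to 9, 67 CMD 10 to 12, 87 WT 13 to 15, 87 CMD 16 to 18, D2 WT 19 to 21 and D2 CMD 22 to 24.

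Fibro-adipogenic progenitors lie between the muscle fibres, carry the receptor Pdgfra on their surface and secrete much of the muscle's extracellular matrix. After injury they multiply and support the muscle stem cells, and in dystrophic muscle they are known as a source of fibrous and fatty tissue. Studies of single cells have described a state with Pi16 and Dpp4, often found in connective tissue sheaths, and other states with Cxcl14 or Smoc2. Cd34 and Ly6a are also carried by endothelial cells, and several of the matrix genes by tendon cells. In whole muscle, fewer cells of a type and less RNA per cell cannot be told apart, so every value below is a transcript level of the tissue.

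The libraries held 32292613 to 51715975 exon reads. Muscle transcripts were abundant: the summed level of 6 fibre genes, such as Ckm and Acta1, was 70510 to 189400 CPM (exon reads scaled to a fixed library total). Lama2 itself was lower in CMD than in WT in B6, with a log2 fold change of -1.004 (adjusted p = 0.00642, edgeR), and in 87, with one of -0.89 (adjusted p = 0.00939). Its differences of 0.04 in 67 and -0.37 in D2 did not pass. Library 16, an 87 CMD library, stood apart: it had the lowest level of all 24 libraries for 8 of the 10 markers, and the metallothionein gene Mt1 was at 1180 CPM there, against 20.1 and 27.3 in libraries 17 and 18. The ubiquitin ligase gene Trim63 was at 3815 CPM in library 16, against 215.3 and 289.8 in those libraries. The labelled sex of 4 D2 libraries (19, 21, 22 and 24) went against their Y-linked reads. Sex was therefore left out of the tests reported as main.

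Within each background CMD was compared with WT, which asks how the markers differ in dystrophic muscle, and the 4 effects were compared with one another, which asks whether genetic background changes that difference. No marker moved the same way in all 4 backgrounds past the threshold of 0.05 for the p adjusted over all genes. In B6 CMD muscle Mfap5 and Ly6a rose, in 67 Mfap5, Pdgfra and Ly6a rose, in 87 Smoc2, Dpp4, Clec3b and Pdgfra fell, and in D2 Cxcl14 rose. These were 2 of 10 markers in B6, where 18.4% of all tested genes passed, 3 of 10 in 67, where 21.7% passed, 4 of 10 in 87, where 20.8% passed, and 1 of 10 in D2, where 20.2% passed. By direction, 8.07% of genes were raised and 10.4% lowered in B6, 11.4% and 10.3% in 67, 11.5% and 9.38% in 87, and 11.2% and 9.03% in D2. The median log2 fold change of the 10 markers was 0.35 in B6, 0.61 in 67, -0.74 in 87 and 0.12 in D2, where the median of all tested genes was 0.01, 0.00, 0.01 and 0.03. Without library 16, 1 marker passed in 87, where 14.7% of genes then did, and the median of the markers there was -0.49. Every CMD library lay above every WT library for 4 markers in B6, 4 in 67, 0 in 87 and 2 in D2, where 19.7%, 22.2%, 15.5% and 21.4% of all genes did. Every CMD library lay below for 1 marker in B6, 1 in 67, 4 in 87 and 1 in D2, where 21.6%, 21.8%, 15.1% and 21.5% of genes did.

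**Figure D1:**
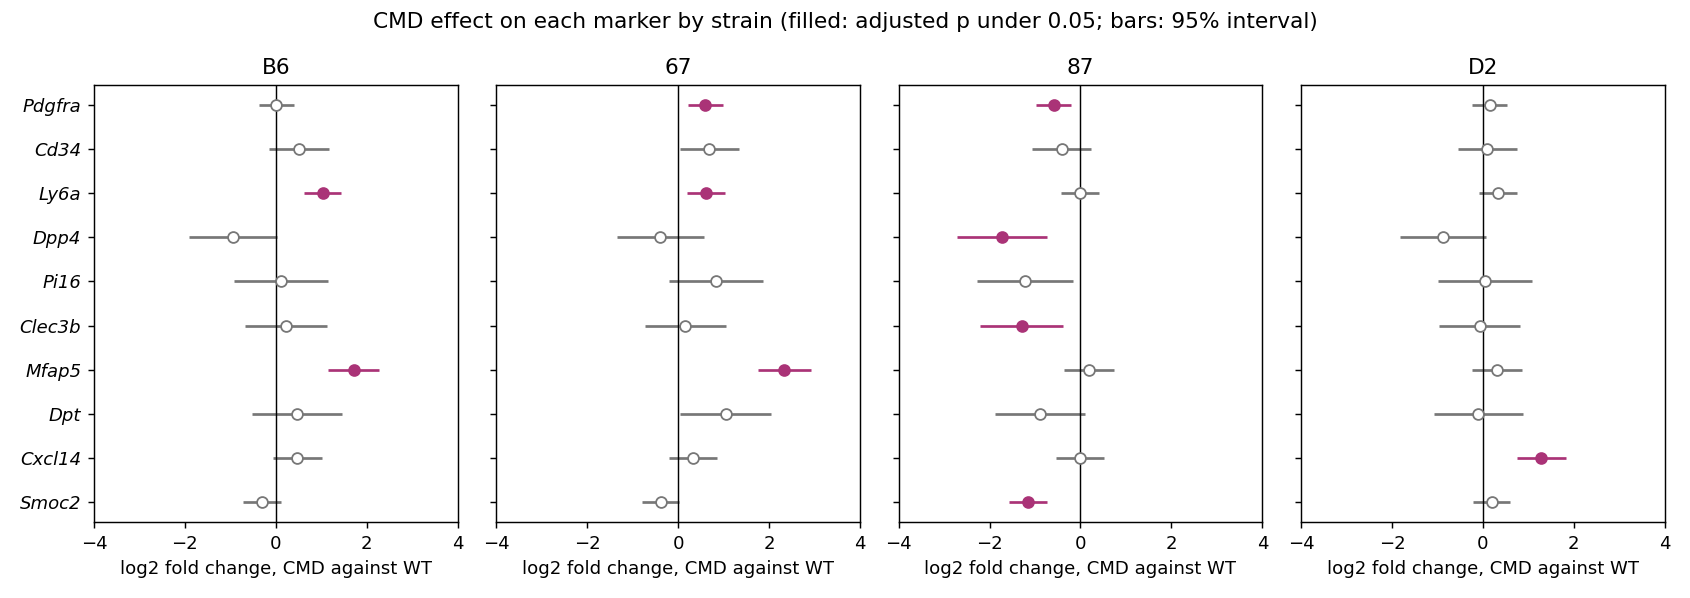
Log2 fold change of CMD against WT (horizontal axis) for the 10 markers in each of the 4 backgrounds, with the 95% interval as a line. Filled points passed the adjusted p of 0.05: they lie to the right of 0 in B6, 67 and D2 and to the left in 87.

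Averaged over the 4 backgrounds, 5 markers passed, where 48.8% of all genes did. Mfap5, Ly6a and Cxcl14 were higher in CMD, and Dpp4 and Smoc2 were lower. These 5 calls held when each of the 24 libraries was left out in turn, and without library 16 Cd34 also passed (log2 0.31, adjusted p = 0.0089, edgeR). The CMD effect itself differed among backgrounds for Mfap5, Smoc2 and Pdgfra, 3 of 10 markers, where 4.67% of genes differed. Levels in WT muscle differed among backgrounds for 0 of 10 markers by edgeR, where 8.66% of genes did. At an unadjusted p under 0.05 the WT difference held for 1, Mfap5 (adjusted p = 0.145, edgeR), and without library 16 Smoc2 passed (adjusted p = 0.0244). Of the 6 pairs of WT groups, 1 gave a call for a marker: Mfap5 was higher in D2 WT than in 67 WT by 0.88 on the log2 scale (adjusted p = 0.0397, edgeR), where 10.7% of genes differed, and that call ended without library 8, 9, 19 or 21 and with sex as labelled (adjusted p = 0.0534). Among the 4 CMD groups 5 of 10 markers differed (Pdgfra, Ly6a, Mfap5, Cxcl14 and Smoc2), where 28.3% of genes did. With a term for sex taken from the Y-linked reads all 10 passed in that comparison of CMD groups, where 32.8% of genes did, and with the CMD libraries fitted alone 3 passed, where 12.2% did.

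**Figure D2:**
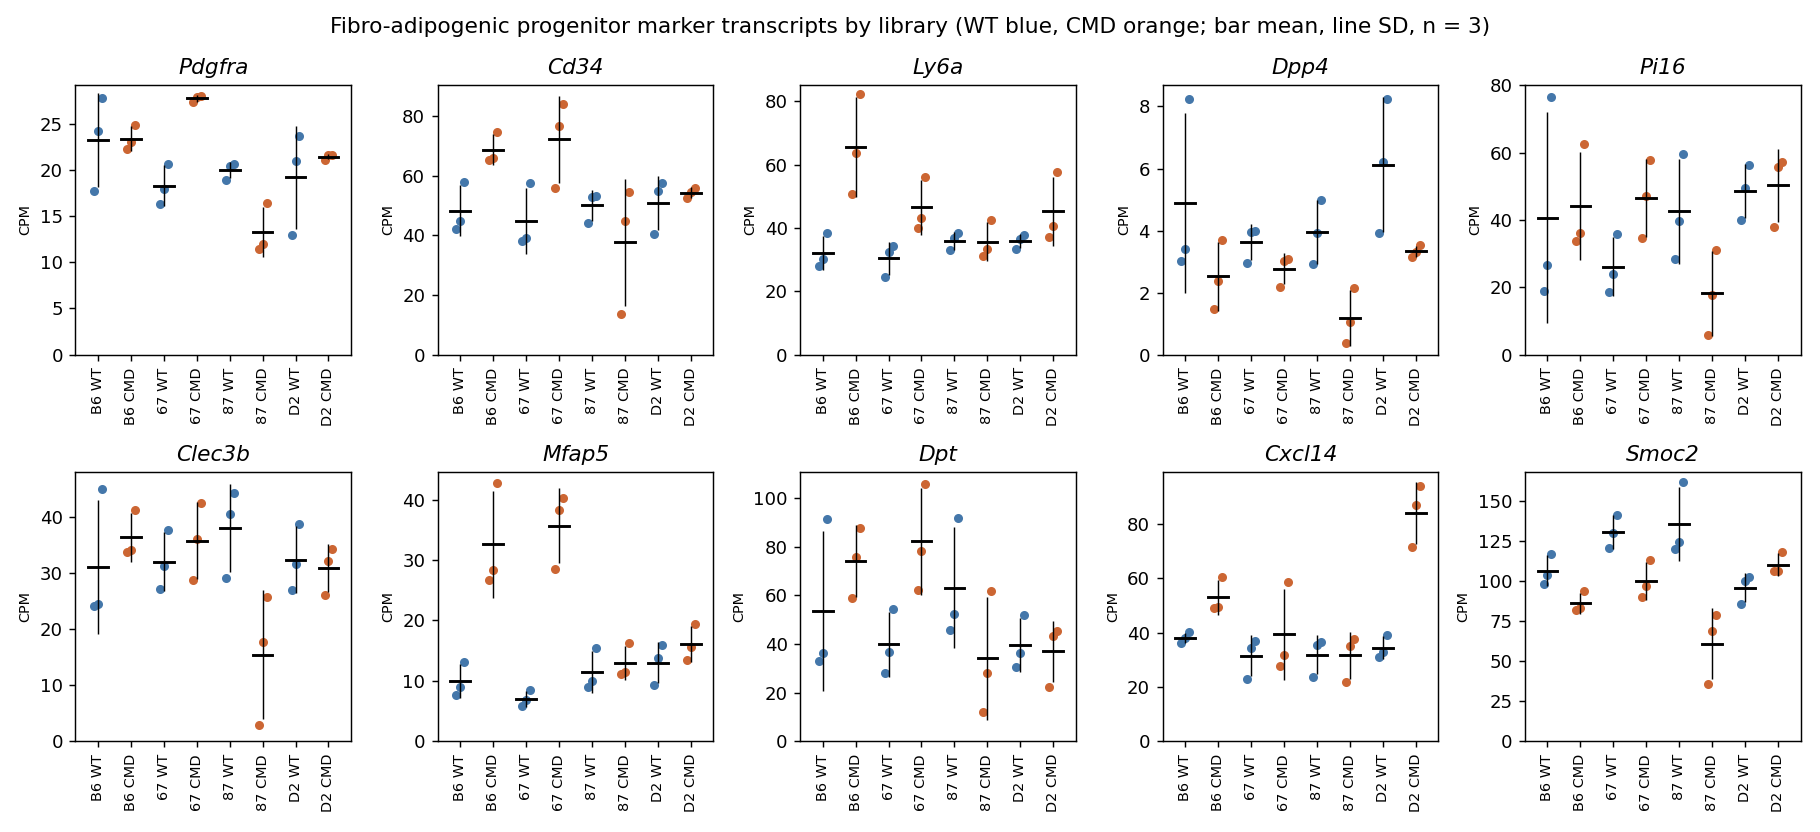
Level of each marker in CPM (vertical axis, from 0) in every library of the 8 groups, with the mean as a bar and the SD as a line (n = 3). WT libraries are blue and CMD libraries orange, and Mfap5 in B6 and 67 CMD and Cxcl14 in D2 CMD lie above every WT library of all backgrounds.

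Pdgfra encodes the receptor for platelet-derived growth factor by which these progenitors are usually sorted. Its level was 27.8, 24.2 and 17.7 CPM in B6 WT and 23.01, 22.3 and 24.9 in B6 CMD. In 67 it was 20.6, 17.98 and 16.3 CPM in WT and 28.0, 27.9 and 27.3 in CMD, so all CMD libraries lay above all WT libraries. In 87 the order was the opposite, with 18.97, 20.5 and 20.6 CPM in WT and 11.5, 11.96 and 16.4 in CMD and no overlap. In D2 the groups overlapped, at 23.7, 12.98 and 20.95 CPM in WT and 21.6, 21.6 and 21.1 in CMD. The rise in 67 was 0.60 ± 0.19 on the log2 scale (SE, adjusted p = 0.0265, edgeR's quasi-likelihood test with Benjamini-Hochberg adjustment). The fall in 87 was -0.59 ± 0.19 (adjusted p = 0.0296, same test). Both rest on few libraries: the call in 67 ended without library 8, 9, 10, 11 or 12, and that in 87 without library 14, 15, 16 or 17. The effect differed among backgrounds with an adjusted p of 0.0481 (edgeR), and that call ended in 19 of the 24 fits that left out a library.

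Genes of the same signalling pathway were listed beside it. The ligands Pdgfa, Pdgfb, Pdgfc and Pdgfd and the other receptor, Pdgfrb, passed in none of the 4 backgrounds by edgeR, with 2 at an unadjusted p under 0.05 in B6, 1 in 67 and 0 in 87 and D2, and their summed level ran from 50.9 to 105.1 CPM over all libraries. Pdgfrb, found mainly on pericytes, was higher in CMD averaged over backgrounds, by 0.38 on the log2 scale (adjusted p = 0.00917, edgeR).

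Cd34 encodes a sialomucin of progenitor and endothelial cells. Its level was 58.0, 42.1 and 44.8 CPM in B6 WT and 65.5, 74.8 and 66.0 in B6 CMD, with no overlap. It was 57.7, 39.0 and 38.0 CPM in 67 WT and 84.1, 76.7 and 55.9 in 67 CMD, where the lowest CMD library lay below the highest WT library. It was 53.1, 53.1 and 44.1 CPM in 87 WT and 13.6, 44.8 and 54.6 in 87 CMD, where library 16 alone fell below the WT range. In D2 it was 54.8, 40.4 and 57.6 CPM in WT and 54.5, 56.1 and 52.5 in CMD. Its log2 fold change was 0.51 ± 0.31 in B6 (SE, adjusted p = 0.265, edgeR) and 0.69 ± 0.31 in 67 (adjusted p = 0.125), and neither passed. Without library 16 both did, with adjusted p of 0.0412 and 0.0101, and with sex from Y-linked reads that in 67 did (0.84, adjusted p = 0.0435).

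Ly6a encodes the surface protein Sca-1, used with Pdgfra to sort these cells in mice. In B6 it was at 38.3, 28.0 and 30.1 CPM in WT and 50.6, 82.3 and 63.8 in CMD. In 67 it was at 32.5, 34.2 and 24.6 CPM in WT and 56.3, 43.2 and 39.9 in CMD. The CMD libraries lay above the WT libraries in both backgrounds. In 87 the groups overlapped, with 36.7, 38.4 and 32.9 CPM in WT and 33.2, 31.1 and 42.6 in CMD. They overlapped in D2 too, with 37.8, 36.6 and 33.4 CPM in WT and 40.8, 37.3 and 57.7 in CMD. The rise was 2.04-fold in B6 (log2 1.03 ± 0.20 SE, adjusted p = 0.00256, edgeR), and it held without any of the 24 libraries in turn. The rise in 67 was 1.53-fold (log2 0.61 ± 0.20, adjusted p = 0.0336), a call that ended without library 7, 9, 10 or 11. Over the 4 backgrounds the mean effect was 0.49 ± 0.10 (adjusted p = 0.000455), while the test of a difference among backgrounds did not pass (adjusted p = 0.105) and did with DESeq2 (adjusted p = 0.0443).

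Since Cd34 and Ly6a are shared with endothelium, 10 endothelial genes were read beside them. In B6, 2 of the 10, Pecam1 and Esam, rose in CMD, and the list's summed level was 259.7 to 267.4 CPM in WT and 320.3 to 388.3 in CMD. In 67 none of the 10 passed by edgeR, 0 also at an unadjusted p under 0.05, and the sums overlapped at 222.4 to 277.1 and 192.8 to 375.8 CPM. None of the 10 genes was at 0 in any group. The part of endothelial transcripts in the B6 rise of Ly6a was not tested.

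Dpp4 and Pi16 mark the state named after them: Dpp4 encodes a surface dipeptidyl peptidase and Pi16 a secreted peptidase inhibitor. Dpp4 had the lowest level per transcript length of the 10 markers, with group means of 0.39 to 2.42 TPM (the authors' length-scaled unit). It was at 8.23, 3.02 and 3.40 CPM in B6 WT and 2.37, 3.71 and 1.48 in B6 CMD, and at 3.95, 3.99 and 2.97 in 67 WT and 3.09, 2.19 and 3.03 in 67 CMD. These groups overlapped. In 87 it was at 4.98, 2.92 and 3.94 CPM in WT and 0.37, 1.04 and 2.13 in CMD, and in D2 at 8.25, 3.91 and 6.20 in WT and 3.52, 3.15 and 3.31 in CMD. In both of these backgrounds every CMD library lay below every WT library. The difference was negative in each background, at -0.95 ± 0.46 in B6, -0.39 ± 0.46 in 67, -1.72 ± 0.48 in 87 and -0.88 ± 0.45 in D2 (log2, SE). Only that in 87 passed (adjusted p = 0.0152, edgeR), and it did not without library 13 or without library 16 (log2 -1.30, adjusted p = 0.0584). The mean over backgrounds was 0.505-fold (log2 -0.99 ± 0.23, adjusted p = 0.00164, edgeR). The effect was not shown to differ among backgrounds (adjusted p = 0.487).

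Pi16 spread widely within groups. It was at 76.5, 18.9 and 26.5 CPM in B6 WT and 33.9, 62.6 and 36.1 in B6 CMD, and at 35.8, 23.9 and 18.7 in 67 WT and 47.1, 34.6 and 57.7 in 67 CMD. In 87 it was at 59.5, 39.5 and 28.5 CPM in WT and 5.71, 17.8 and 31.1 in CMD, and in D2 at 56.2, 40.1 and 49.5 in WT and 37.9, 55.7 and 57.2 in CMD. The 2 genotypes overlapped in every background. Its difference did not pass in any, and was -1.22 ± 0.50 in 87 (log2, SE, adjusted p = 0.0899, edgeR). With sex from Y-linked reads that difference was -1.51 and passed (adjusted p = 0.0238), and without library 16 it was -0.79 (adjusted p = 0.289). It also passed without library 18 (-1.87, adjusted p = 0.0221). The test of a difference among backgrounds (adjusted p = 0.243, edgeR) passed with sex as labelled (adjusted p = 0.0401). That test did not pass with sex from Y-linked reads.

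Of 10 further genes reported with this state, 1 was lowered in B6, 1 in 67, 5 in 87 and 1 in D2, and 1 was raised in 67. Without library 16, 2 were lowered and 1 was raised in 87. Sema3c, a secreted guidance protein of the semaphorin family, was lower in CMD by 1.22 in B6 (adjusted p = 0.00138), 0.70 in 67 (adjusted p = 0.0230) and 1.23 in 87 (adjusted p = 0.000733), all log2 by edgeR. Its difference in D2, -0.51, did not pass (adjusted p = 0.0903). In 87 the Wnt ligand gene Wnt2 also fell, by 2.31 (adjusted p = 0.00847). Its level was very low, at 0.17 to 0.55 CPM in 87 WT and 0.03 to 0.10 in 87 CMD, so few reads lay behind that fall.

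Clec3b encodes tetranectin, a plasminogen-binding protein that these cells secrete. It was at 45.0, 24.5 and 24.1 CPM in B6 WT and 33.7, 41.4 and 34.1 in B6 CMD, at 37.7, 31.2 and 27.2 in 67 WT and 42.5, 36.1 and 28.8 in 67 CMD, and at 38.9, 26.9 and 31.6 in D2 WT and 32.2, 34.4 and 26.2 in D2 CMD. In these 3 backgrounds the genotypes overlapped. In 87 it was at 44.4, 40.6 and 29.2 CPM in WT and 2.99, 17.7 and 25.7 in CMD, with every CMD library below every WT library. The fall in 87 was 0.407-fold (log2 -1.30 ± 0.44 SE, adjusted p = 0.0401, edgeR). It did not pass without library 13, 14, 15, 16 or 17, and without 16 the log2 fold change was -0.81.

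Dpt encodes dermatopontin, a small matrix protein bound to collagen fibrils and decorin. It was at 91.5, 32.9 and 36.3 CPM in B6 WT and 58.7, 87.8 and 75.9 in B6 CMD, and at 91.7, 52.4 and 45.7 in 87 WT and 12.1, 28.1 and 62.0 in 87 CMD. In 67 it was at 54.5, 28.3 and 36.9 CPM in WT and 106.0, 78.3 and 62.4 in CMD, where all CMD libraries were above all WT libraries. In D2 it was at 52.0, 30.6 and 36.4 CPM in WT and 43.3, 45.3 and 22.5 in CMD. Its differences did not pass, with 1.04 ± 0.48 in 67 (log2, SE, adjusted p = 0.124, edgeR) and -0.89 ± 0.47 in 87 (adjusted p = 0.196). With sex from Y-linked reads the rise in 67 was 1.30 and passed (adjusted p = 0.0378). The difference in 87 passed with sex as labelled (-1.24, adjusted p = 0.0287) and without library 18 (-1.66, adjusted p = 0.0207), and it was -0.48 without library 16. The test of a difference among backgrounds (adjusted p = 0.232, edgeR) also passed with sex as labelled (adjusted p = 0.0311). It passed without library 18 too (adjusted p = 0.0433, edgeR). Neither this test nor the difference in 87 passed with sex from Y-linked reads.

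Mfap5 encodes a microfibril-associated glycoprotein that binds fibrillin, and its fold change in 67 was the largest of the 10 markers in any background. In B6 it was at 13.2, 7.74 and 8.97 CPM in WT and 28.3, 42.8 and 26.8 in CMD. In 67 it was at 8.51, 5.85 and 6.80 CPM in WT and 40.2, 28.6 and 38.3 in CMD. The lowest CMD library was thus above the highest WT library in both. In 87 the genotypes overlapped at 15.4, 9.99 and 8.92 CPM in WT and 11.4, 11.2 and 16.3 in CMD. In D2 they overlapped at 15.95, 9.32 and 13.7 CPM in WT and 13.5, 19.4 and 15.6 in CMD. The rise was 3.27-fold in B6 (log2 1.71 ± 0.27 SE, adjusted p = 0.000697, edgeR) and 5.06-fold in 67 (log2 2.34 ± 0.28, adjusted p = 3.71e-05), and both held without any 1 of the 24 libraries. In 87 the log2 fold change was 0.18 with a 95% interval of -0.37 to 0.73, and in D2 it was 0.31 with an interval of -0.24 to 0.86. The effect differed among the 4 backgrounds (adjusted p = 0.00401, edgeR). Pairs of effects differed for few genes, 1.28% between D2 and 67, 0.142% between 87 and 67 and 3.62% between D2 and B6. The effect of Mfap5 in D2 was below that in 67 by a log2 difference of -2.02 ± 0.38 (adjusted p = 0.0137), and that held without any 1 library. The effect in 87 against 67 (-2.16, adjusted p = 0.0389) and that in D2 against B6 (-1.40, adjusted p = 0.0417) each lost their call in 10 of the 24 fits without a library.

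The other elastic fibre and microfibril genes were read as a list of 15. In B6, 7 rose and 0 fell, in 67, 8 rose and 0 fell, in D2, 5 rose and 0 fell, and in 87, 1 rose and 4 fell. The median log2 fold change was 0.61, 0.89, 0.69 and -0.36 in the same order. Elastin (Eln), the core of the fibre, rose by 1.88 in B6 (adjusted p = 0.000601) and 1.78 in 67 (adjusted p = 0.000493), and Fbn1, the fibrillin of the microfibril, fell by 1.67 in 87 (adjusted p = 0.00365, all log2 by edgeR). Without library 16, 2 of the list rose and 1 fell in 87. Tendon cell genes were read beside Mfap5: of 8 listed, 2 rose in B6, 3 in 67 and 2 in D2, and 1 fell in 87. Their summed level was 107.2 to 250.8 CPM in B6 WT and 354.8 to 600.4 in B6 CMD, 141.7 to 283.9 in 67 WT and 433.0 to 655.0 in 67 CMD, 81.5 to 186.7 in 87 WT and 25.9 to 119.4 in 87 CMD, and 102.4 to 281.5 in D2 WT and 321.3 to 686.4 in D2 CMD. None of the 8 was at 0 in any group, and their part in the rise of Mfap5 in B6 and 67 was not tested.

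Cxcl14, a chemokine gene, rose in D2. It was at 39.3, 31.1 and 32.9 CPM in D2 WT and 71.5, 87.0 and 93.9 in D2 CMD, the 3 highest values among all 24 libraries. In B6 it was at 36.3, 37.9 and 40.1 CPM in WT and 49.2, 60.5 and 49.6 in CMD, also with no overlap. It was at 34.5, 37.1 and 23.01 CPM in 67 WT and 58.7, 27.8 and 31.8 in 67 CMD, and at 23.7, 36.6 and 35.6 in 87 WT and 21.8, 35.3 and 37.8 in 87 CMD, where the genotypes overlapped. The rise in D2 was 2.44-fold (log2 1.29 ± 0.26 SE, adjusted p = 0.00242, edgeR) and held without any 1 of the 24 libraries. The difference in B6 was 0.48 ± 0.25 (adjusted p = 0.195), and it passed when B6 libraries were fitted alone (adjusted p = 0.0248). The mean over backgrounds was 0.52 ± 0.13 (adjusted p = 0.00228). The test of a difference among all 4 backgrounds did not pass (adjusted p = 0.115, edgeR), and it did with DESeq2 (adjusted p = 0.0407). Between D2 and 87, where 7.9% of genes differed in effect, that of Cxcl14 differed by 1.30 ± 0.36 (adjusted p = 0.0309), a call that ended without library 14, 15, 16, 20, 21, 23 or 24. By the Y-linked reads 0 of 3 mice were male in D2 WT and 2 of 3 in D2 CMD, so genotype and sex were nearly aligned there. Library 23, at 87.0 CPM, was the only D2 CMD library that was female by those reads, and its TMM scaling factor of 1.33 was the highest of the 24. With sex from Y-linked reads as a term the rise in D2 was 1.31 (adjusted p = 0.00539, edgeR). That term was shared by all 4 backgrounds, and the part of sex in the D2 rise was not tested.

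Smoc2 encodes a secreted calcium-binding matrix protein. In 87 it fell from 120.1, 162.1 and 124.6 CPM in WT to 35.9, 78.7 and 68.7 in CMD. It was at 117.2, 98.2 and 104.0 CPM in B6 WT and 93.6, 81.9 and 83.1 in B6 CMD, and at 120.7, 141.5 and 130.2 in 67 WT and 113.0, 90.2 and 97.0 in 67 CMD. In these 3 backgrounds all CMD libraries lay below all WT libraries. In D2 it was at 85.5, 102.8 and 99.9 CPM in WT and 106.3, 118.4 and 106.4 in CMD, so there all CMD libraries lay above. The fall in 87 was 0.451-fold (log2 -1.15 ± 0.20 SE, adjusted p = 0.000725, edgeR). It held without any 1 of the 24 libraries, at -0.89 without library 16, and it did not pass when the 87 libraries were fitted alone (adjusted p = 0.0922). The differences of -0.30 ± 0.20 in B6 (adjusted p = 0.290) and -0.39 ± 0.20 in 67 (adjusted p = 0.168) did not pass, nor did the positive one of 0.20 ± 0.20 in D2 (adjusted p = 0.486). That in 67 passed without library 16 (adjusted p = 0.0265). Averaged over backgrounds the effect was -0.41 ± 0.10 (adjusted p = 0.00186, edgeR), and -0.24 with an adjusted p of 0.0607 where libraries were scaled by their total alone. The effect differed among backgrounds (adjusted p = 0.0319), a call that ended without library 14, 15, 19, 20, 21, 23 or 24. The difference of effects between D2 and 87 was 1.35 ± 0.28 (adjusted p = 0.00515) and held without any 1 library.

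Of 10 further genes reported with Cxcl14 or Col15a1 fibroblasts, 0 passed in B6 by edgeR (1 at an unadjusted p under 0.05), 2 rose in 67, 1 in 87 and 2 in D2, and none fell. The 2 in D2 were Crispld2 (log2 1.23, adjusted p = 0.00510, edgeR) and the lipid carrier gene Apod (1.27, adjusted p = 0.0317). With sex from Y-linked reads as a term and libraries 16 and 23 left out, 0 of the 10 passed in D2. In that fit genotype and sex were fully aligned in D2: libraries 22 and 24 were male by those reads and all D2 WT libraries female. The sex term thus came from the other backgrounds, and fewer of all genes passed in D2 too. Whether the rises of Crispld2 and Apod depend on sex was not tested.

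The 8 groups were also ranked by their mean level of each marker. The ratio of the highest to the lowest group mean in CPM was 5.19 for Dpp4 and 5.06 for Mfap5, and 1.92 to 2.76 for the other 8. Most neighbouring groups in that ranking overlapped: of 7 neighbouring pairs per marker, 2 did not overlap for Pdgfra and Smoc2, 1 for Cd34, Dpp4, Clec3b, Mfap5 and Cxcl14, and 0 for Ly6a, Pi16 and Dpt. The same count over all genes was not made, so it says nothing particular to the markers. Per transcript length, in the TPM deposited by the authors, the highest group mean was 119.5 for Cxcl14, 101.5 for Dpt and 99.8 for Ly6a, and only 6.15 for Pdgfra and 2.42 for Dpp4.

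**Figure D3:**
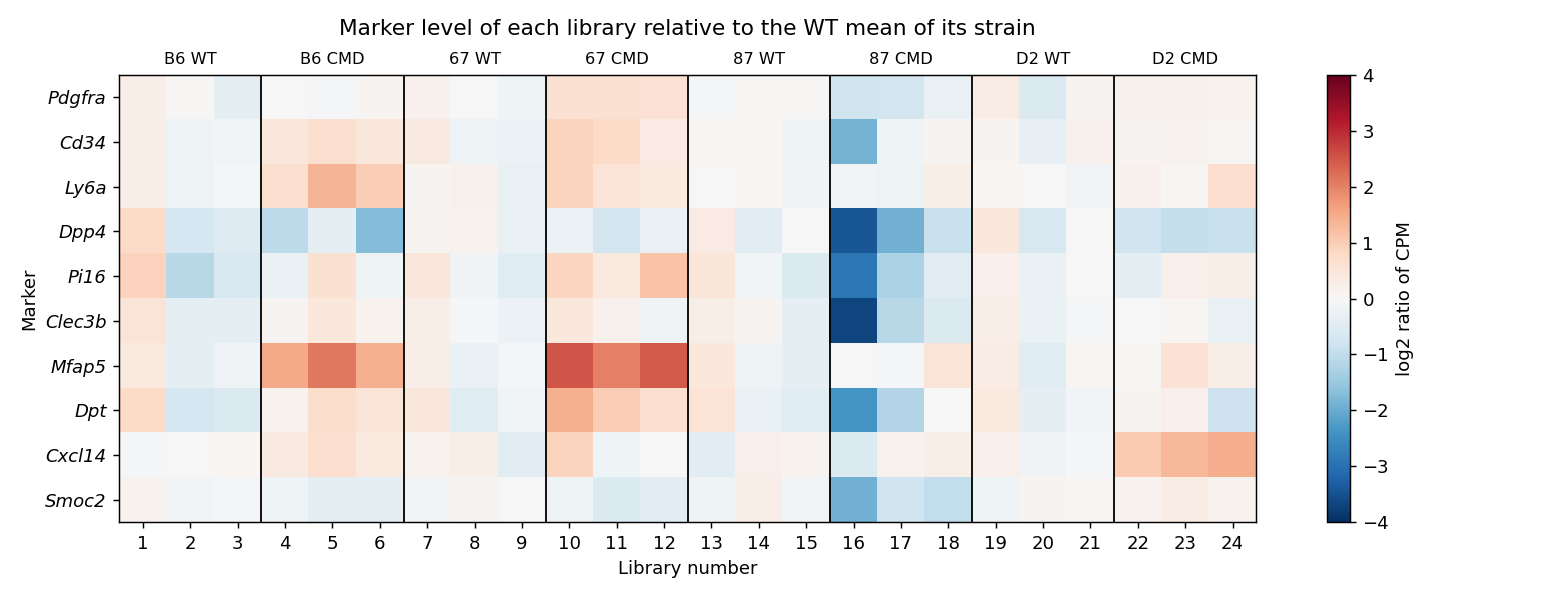
Log2 ratio of each library's CPM to the WT mean of its background (colour, from -4 in blue to 4 in red) for the 10 markers (rows) and 24 libraries (columns). Library 16 is below its WT mean for all 10 markers, and Mfap5 stands out in libraries 4 to 6 and 10 to 12.

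The markers were also compared with other genes of fibroblasts. Of 18 other genes of these progenitors, among them Lum, Dcn and the fibrillar collagens, 2 rose in B6, 3 in 67 and 5 in D2, and 2 fell in 87. Their median log2 fold change was 0.49, 0.61, 0.50 and -0.68 in B6, 67, D2 and 87. The small proteoglycan gene Bgn rose by 2.02 in B6 (adjusted p = 0.000535), 2.19 in 67 (adjusted p = 0.000149) and by 1.28 in D2 (0.00692, log2 by edgeR). Without library 16 the counts were 6 raised in B6, 6 in 67 and 8 in D2, with 1 lowered in 87. Of 16 genes of activated fibroblasts and myofibroblasts, 9 rose in B6, 9 in 67, 4 in 87 and 4 in D2, and 1, Loxl2, fell in 87. Without library 16 the rises numbered 10, 9, 4 and 4, and 0 fell. Timp1, an inhibitor of matrix metalloproteinases, rose in all 4 backgrounds by edgeR. Its log2 fold change was 4.94 in B6 (adjusted p = 4.47e-05), 5.75 in 67 (1.34e-05), 3.09 in 87 (0.000518) and 4.38 in D2 (3.99e-05). The summed level of the 16 was 133.9 to 160.5 CPM in 87 WT and 146.9 to 300.0 in 87 CMD, while in B6 it was 122.9 to 235.0 in WT and 565.2 to 679.4 in CMD. In 87 the 4 that rose were Col8a1, Ccn2, Cilp and Timp1, while 0 of the 10 markers rose there, and whether the lists differ in that was not tested.

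**Figure D4:**
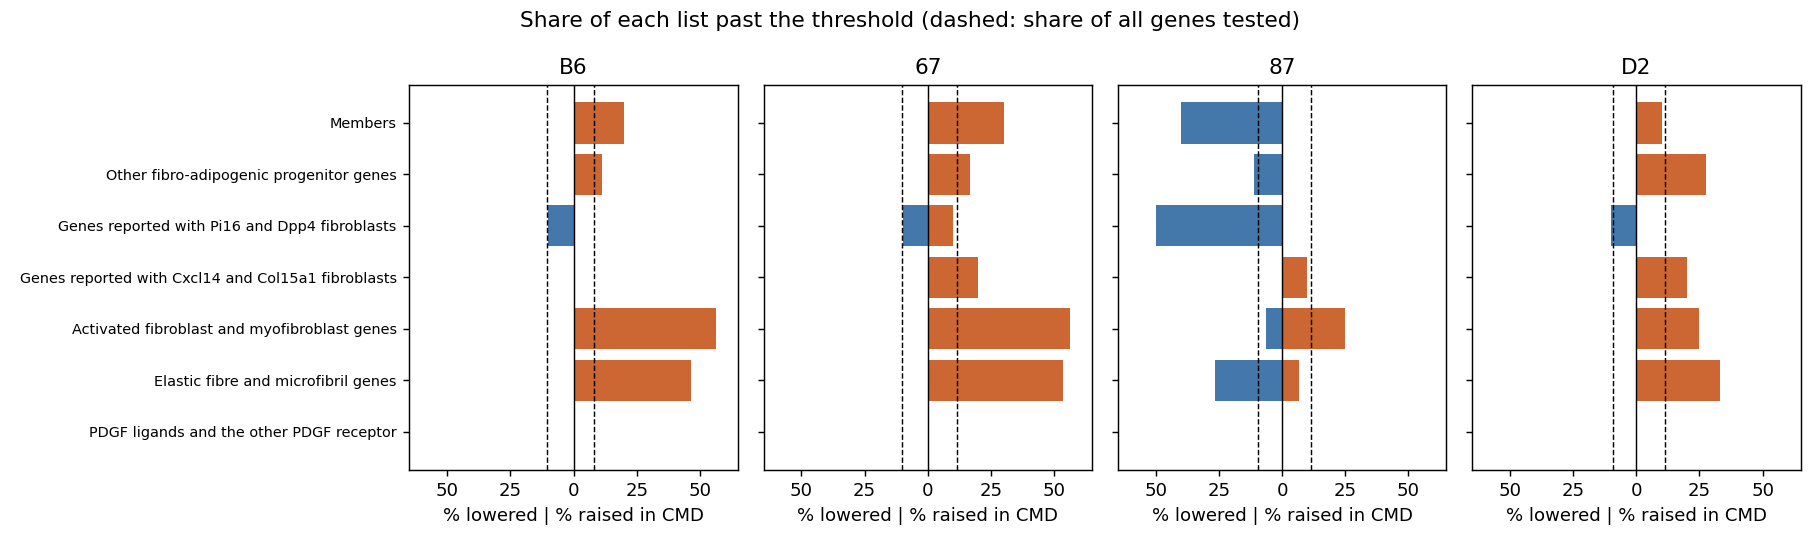
Percent of each gene list that was raised (right, orange) or lowered (left, blue) in CMD at an adjusted p under 0.05, in each background. Dashed lines give the percent of all tested genes, and the activated fibroblast list lies beyond the line for raised genes in all 4 backgrounds.

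How the markers varied from library to library within a group was described by the correlation of log2 CPM after each group's mean was removed, over 24 libraries that share depth, dissection and the scaling of each library. Of the 45 pairs of markers 15 had r over 0.7, and 10 did without library 16. How many pairs of all genes had such an r was not counted, so the count says nothing particular to the markers. Cd34 and Clec3b had the highest r, 0.96, and 0.84 without library 16. Dpp4 and Pi16, the named pair, had 0.88, and 0.80 without it. Pi16 and Mfap5 had 0.76 and 0.86. Once library 16 was left out Smoc2 had low r with the others, at -0.01 for Cd34, 0.09 for Clec3b and 0.33 for Cxcl14. With all libraries these had been 0.71, 0.76 and 0.54. Cxcl14 was then low with several markers too, at 0.006 for Dpt, 0.14 for Pi16 and 0.15 for Mfap5, but at 0.55 for Ly6a. Those values of Cxcl14 are also without library 16. These values carry no test.

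For each marker the genes with the most similar level over the 24 libraries were picked from 10706 genes by Pearson's r of log2 CPM, which includes differences between groups and library 16. Clec3b was closest to Antxr2 (r = 0.96), Cd34 to Olfml2b (0.92), Dpp4 to Efemp1 (0.92), Pi16 to Cd248 (0.90), Smoc2 to Fkbp9 (0.89) and Ly6a to Hpcal1 (0.86). Mfap5 was closest to Crip1 and Il13ra1 (both 0.90), with Postn, a gene of activated fibroblasts, at 0.90. Dpt was closest to Srpx2 (0.85), Cxcl14 to Camkk2 (0.85) and Pdgfra to C1s1 (0.84).

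Promoter sequence is shown for Dpp4 and Pi16, which varied together, and for Cxcl14, which rose in D2. RefSeq windows of 300 bases, 250 before and 50 after the transcription start, on the GRCm38.p6 build were found for 6 of the 10 markers. Capitals mark matches, on either strand, to 7 motifs: the TATA box TATAAA, the box CCAAT, the box of Sp1 GGGCGG, the TEAD motif CATTCC, the motif of AP-1 TGANTCA, the E-box CACGTG and the Smad motif CAGACA. The windows lie at chr2:62412182-62412481 on the minus strand for Dpp4, chr17:29318632-29318931 on the plus strand for Pi16 and chr13:56296502-56296801 on the minus strand for Cxcl14.
Dpp4: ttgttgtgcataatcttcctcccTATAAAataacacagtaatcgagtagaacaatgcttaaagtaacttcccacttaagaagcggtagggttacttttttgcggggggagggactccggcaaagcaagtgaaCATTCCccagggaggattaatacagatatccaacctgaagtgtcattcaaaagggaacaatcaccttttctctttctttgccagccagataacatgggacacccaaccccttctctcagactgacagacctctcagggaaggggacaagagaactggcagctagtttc
Pi16: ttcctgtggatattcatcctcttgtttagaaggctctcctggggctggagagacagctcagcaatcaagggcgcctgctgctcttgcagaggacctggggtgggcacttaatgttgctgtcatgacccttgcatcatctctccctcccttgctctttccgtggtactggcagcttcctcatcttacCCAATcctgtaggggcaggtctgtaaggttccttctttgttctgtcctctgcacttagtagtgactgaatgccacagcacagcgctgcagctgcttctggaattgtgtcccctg
Cxcl14: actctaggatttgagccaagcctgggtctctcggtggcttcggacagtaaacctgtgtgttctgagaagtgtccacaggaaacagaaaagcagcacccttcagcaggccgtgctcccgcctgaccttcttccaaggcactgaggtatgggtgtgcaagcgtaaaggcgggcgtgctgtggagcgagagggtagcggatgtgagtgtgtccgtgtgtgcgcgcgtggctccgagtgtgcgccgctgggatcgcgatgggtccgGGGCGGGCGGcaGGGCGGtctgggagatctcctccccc
Dpp4 held 1 TATAAA and 1 CATTCC, motifs found in 13.6% and 14.7% of 32851 windows of this length. Pi16 held 1 CCAAT, found in 37.4% of windows. None of the 7 motifs was in both Dpp4 and Pi16, and whether that bears on how they varied was not tested. Cxcl14 held 3 overlapping or adjoining GGGCGG, a motif found in 35.7% of windows, and it was rich in CpG, with 22 against 4 in Dpp4, 3 in Pi16 and a median of 7 over all windows. Counted from the transcription start, the TATAAA of Dpp4 began at base -227 and the GGGCGG matches of Cxcl14 at bases 12, 16 and 24. A match is a description of the letters only.

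Sex was compared after its uneven spread over the groups was seen. In B6, 67 and 87 the labels and the Y-linked reads gave the same sex, and each WT group held 1 male, library 1, 7 and 13. Pi16 was highest of its WT group in that male in all 3, at 76.5, 35.8 and 59.5 CPM, and so was Dpt, at 91.5, 54.5 and 91.7, and Clec3b, at 45.0, 37.7 and 44.4. Mfap5 was too, at 13.2, 8.51 and 15.4 CPM. Cxcl14 was instead lowest of its WT group in libraries 1 and 13, and Smoc2 in libraries 7 and 13. How many of all genes had such an order was not counted. Over the 18 libraries of these backgrounds, with a term for each group, Dpt was higher in males by 0.87 ± 0.25 (log2, SE, adjusted p = 0.116, edgeR) and Pi16 by 0.85 ± 0.31 (adjusted p = 0.177). By edgeR 0 of 10 markers passed, where 1.14% of 14503 genes did. At an unadjusted p under 0.05 there were 4 markers (Dpt, Pi16, Clec3b and Cd34), and 2574 of the 14503 genes. Without library 16, a female, there was 1 such marker, Dpt, and 2034 of 14692 genes. When each of the 18 libraries was left out in turn, markers past the adjusted threshold numbered 0 to 3, and the 3 was without library 5. The share of all genes in those fits was not counted. Males numbered 1 of 3 in 67 WT and 0 of 3 in 67 CMD, and 1 of 3 in 87 WT and 2 of 3 in 87 CMD.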

How the data were processed

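Per the labels' protocols, quadriceps RNA of 24 mice (TRIzol) went through a stranded kit for mRNA libraries and was read in pairs of 58 bases on a NextSeq machine. The submitters' processing notes name the build as GRCm39 (mm39). No aligner or counting program is given in the sources used here. Each deposited file lists raw counts for every Ensembl gene, as total and as unique exon reads, beside RPKM and TPM that the authors scaled by exon length and library. TPM deposited by the authors served only to compare levels between genes, and RPKM deposited by the authors was not used. Lists and markers were chosen with earlier results of these data known.

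Total exon reads were tested with edgeR 4.0.16 (R 4.3.3, glmQLFit and glmQLFTest, TMM scaling) after filterByExpr by group (minimum count 10, minimum total 15), in 1 fit of all 24 libraries with a term per group and none for sex. Prior degrees of freedom averaged 3.74. CPM stands for exon reads after scaling to TMM library sizes, and log2 CPM has a prior count of 2. P-values were adjusted by Benjamini-Hochberg over all 14789 tested genes, called at 0.05, and 95% intervals use the quasi-likelihood standard error. The labels do not say that replicates were other than separate mice, and the p-values measure only the spread between these samples. The named genes were the 10 markers, the most changed called gene of each list, and genes singled out after their values were seen (Sema3c, Bgn, Eln, Fbn1, Crispld2, Pdgfrb, Pecam1, Loxl2, Col8a1, Ccn2 and Cilp). Genes most like a marker were ranked among those whose log2 CPM averaged 1 or more.

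Alternatives were sex as labelled or from 4 Y-linked genes, no filter, RLE scaling, scaling by the total alone, unique reads, DESeq2 1.42.0, only the libraries compared, leaving out libraries 16 and 23, and leaving out each library. Scripts were tested on simulated data. The unique share of exon reads was 97.7% to 98.2% per library.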

Additional observations from a re-analysis of the deposited data

Results flagged for a closer look

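The CMD effect differed among the 4 backgrounds for 3 of the 10 markers, by an edgeR quasi-likelihood F test of the interaction with adjustment over all genes. For Mfap5 the adjusted p was 0.00401, with rises in B6 and 67 and log2 fold changes of 0.18 in 87 and 0.31 in D2, and it stayed between 0.0022 and 0.0145 when each library was left out. For Smoc2 the adjusted p was 0.0319, with all 3 CMD libraries below WT in B6, 67 and 87 and above WT in D2, and it ran from 0.0133 to 0.0852 when each library was left out. For Pdgfra the adjusted p was 0.0481, with a rise in 67 and a fall in 87, and it ran from 0.0211 to 0.105, losing its call in 19 of 24 such fits.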

How the results depend on the processing

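No paired analysis was possible because each replicate number belongs to 1 library. In B6, 2 markers passed, and 4 when only the libraries compared were fitted. In 67, 3 passed, and 5 with sex as labelled, 5 with sex from Y-linked reads, 5 without libraries 16 and 23, 6 without both and with sex from Y-linked reads, and 6 on the 67 libraries alone. In 87, 4 passed, and 6 with sex as labelled, 5 with sex from Y-linked reads, 5 with DESeq2, 1 without libraries 16 and 23, 2 without them and with sex from Y-linked reads, 2 with no composition factor and 0 on the 87 libraries alone, where 355 of all genes passed in place of 3083. In D2, 1 passed under each alternative run. The effect differed among backgrounds for 3 markers, for 5 with sex as labelled and 5 with DESeq2, and for 2 (without Pdgfra) with no filter, without libraries 16 and 23, and without them with a sex term. WT levels differed for 0 markers, and for 1 without libraries 16 and 23, 1 with sex from Y-linked reads as well, and 1 on WT libraries alone. CMD levels differed for 5 markers, for 10 with sex as labelled, 10 with sex from Y-linked reads, 4 without libraries 16 and 23 with or without a sex term, and 3 on CMD libraries alone. Averaged over backgrounds 5 passed, and 4 to 6 under the alternatives. The cause of these changes was not tested. Calls over all genes also moved between fits, so a higher count of markers is not by itself a change of the markers. Without library 16 alone, all genes called numbered 3798 in B6 in place of 2724, 4245 in 67 in place of 3210 and 4268 in D2 in place of 2986. Counts over all genes moved by more than 1.5 times in these cases: 1555 (sex as labelled) and 1740 (DESeq2) against 690 for the effect among backgrounds, 2014 (without 16 and 23) against 1281 for WT levels, 1776 (CMD libraries alone) against 4184 for CMD levels, and 941 (without 16 and 23, sex from Y-linked reads) against 2986 in D2.

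When each library was left out in turn, markers passing numbered 2 to 3 in B6, 1 to 5 in 67, 1 to 6 in 87, 1 in D2, 5 to 6 on average, 1 to 4 for the effect among backgrounds, 0 to 1 in WT, 4 to 10 in CMD and 0 to 3 for sex. The value of 1 in 87 was without library 16 and that of 6 without library 18, and the 10 in CMD was without library 18. Counts over all genes ran from 1139 to 3798 in B6, 1921 to 4245 in 67, 1832 to 3741 in 87, 1511 to 4268 in D2, 6744 to 7925 on average, 356 to 1168 for the effect among backgrounds, 562 to 1963 in WT and 2388 to 5276 in CMD. With no composition factor the median of all genes moved by 0.13 in B6, 0.26 in 67, -0.02 in 87 and 0.27 in D2 (log2). No call changed direction. No composition factor, the sex comparison, and libraries 16 and 23 left out with a sex term were chosen after seeing the data.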

Other observations

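Fibre transcripts and immune transcripts moved beside the markers. The summed level of 6 muscle fibre genes was 146100 to 189400 CPM in B6 WT and 85990 to 107400 in B6 CMD, 177200 to 185000 in 67 WT and 78890 to 84060 in 67 CMD, 151400 to 161200 in 87 WT and 87460 to 130500 in 87 CMD, and 128800 to 142000 in D2 WT and 70510 to 125800 in D2 CMD. The sums of CMD libraries lay below those of WT libraries in all 4 backgrounds, and their part in the marker differences was not tested. Much of each sum was Myh4, with a mean of 82530 CPM in B6 WT and 25490 in B6 CMD. The 6 genes did not move as one: 2 fell in B6, 4 in 67, 2 in 87 and 1 in D2. The myoglobin gene Mb rose instead, by 4.13 in 67 (log2, adjusted p = 0.00269, edgeR) and 3.52 in 87 (adjusted p = 0.00625). Of 8 macrophage genes 0 passed in B6 by edgeR (3 at an unadjusted p under 0.05) and rises numbered 3 in 67, 1 in 87 and 5 in D2, and none fell, with Cd68 at 2.17 in 67 (log2, adjusted p = 0.0143, edgeR). The 1 in 87 was also Cd68, at 4.04, 10.5 and 38.8 CPM from the lowest to the highest CMD library and 2.08 to 4.72 in WT, and without library 16, 0 of the 8 passed there.

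Adipocyte genes varied widely between mice of 1 group. The sum of 9 such genes was 2460 and 2984 CPM in libraries 22 and 23 and 146.0 in library 24, all D2 CMD, and 148.8 to 1122 CPM in 87 WT. Of the 9, 1 rose in D2 (Cfd, log2 3.64, adjusted p = 0.0208, edgeR) and 0 passed in the other backgrounds. At an unadjusted p under 0.05 there were 0, 1, 2 and 7 in B6, 67, 87 and D2. Their median log2 fold change in D2 was 2.15. Averaged over backgrounds 4 of the 9 rose and 1 fell by edgeR, where 48.8% of all genes passed.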
